A study of Mus musculus with 10 samples.

Results

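The genes described here are 41 repair and checkpoint genes, listed by symbol as the Fanconi genes and the named genes of homologous recombination, related DNA repair and the DNA damage checkpoint. The array gave a value from probe sets naming that gene alone for 37 of them, among 22180 genes in all; Fanca, Rbbp8, Xrcc2 and Rad54b were not analysed here. The list goes by function, and it was drawn up with earlier results of these data known. Levels were compared between 5 chlorine-exposed mice and 5 unexposed mice. The exposed mice had breathed 235 ppm chlorine for 1 hr, with the whole body exposed, and their tracheas were taken 4 days later; the unexposed mice had no treatment. All were male FVB/NJ mice of 9 weeks. Tissue beneath the tracheal epithelium was cut from stained frozen sections with a laser, pooled over the sections of each mouse, and put on 1 Affymetrix array per mouse.

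When replication forks stall or DNA strands break, single-stranded DNA recruits the kinase ATR through its partner ATRIP, and TOPBP1 switches the kinase on; with the adaptor claspin it then activates CHK1, which delays the cell cycle. Double-strand breaks also activate ATM and CHK2. The Fanconi core complex attaches ubiquitin to FANCD2 and FANCI at DNA crosslinks, and BRCA1, PALB2 and BRCA2 act in the recombination that copies a broken strand from the sister chromatid. Many of these proteins serve ordinary DNA replication and are made mainly in dividing cells.

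Array medians lay between 5.10 and 5.18 on the log2 scale. Correlations across genes, which are not independent replicates, were 0.948 to 0.983 among exposed arrays, 0.982 to 0.986 among unexposed arrays and 0.928 to 0.972 between the groups. Fibroblast markers averaged 9.90 to 10.6 in exposed mice and 9.64 to 9.93 in unexposed mice. General epithelial markers averaged 8.27 to 9.26 in exposed mice and 8.68 to 9.14 in unexposed mice. Secretory epithelial markers averaged 5.32 to 11.5 in exposed mice. In unexposed mice they averaged 11.8 to 12.1, above the fibroblast markers. The captured tissue thus held RNA of epithelial genes. With no detection limit at hand, how much epithelium it held was not tested. In such tissue, more cells of a type and more RNA per cell cannot be told apart.

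Of the 37 genes measured, 15 rose in exposed mice and 0 fell (limma across all genes, adjusted p under 0.05). That is 40.5% higher, where 5.85% of all genes tested were higher and 4.97% lower. The median log2 change was 0.37, or 1.30-fold, against -0.0035 over all genes tested, and 32 of the 37 changes were above 0, as were 49.4% of all genes tested. Changes were modest in size: Lig1 (2.25-fold) and Exo1 (2.12-fold) were the only called genes past 2-fold. In unexposed mice, 12 of the 15 called genes read below the median of all genes (5.51), as did 8 of the 22 others. How far dim signals limit these folds is unknown. All 5 exposed mice stood above all 5 unexposed mice for 12 of the 37 genes, against 5.89% of all genes tested, and below them for 0, against 5.06%. Pms2 alone was lower at an unadjusted p under 0.05, as were 11.9% of all genes. With 1 mouse left out, 10 to 16 of the genes were called higher, the fewest without unexposed mouse 3 and the most without exposed mouse 3; 10 of the 15 kept their call in every one of these 10 fits.

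**Figure D1:**
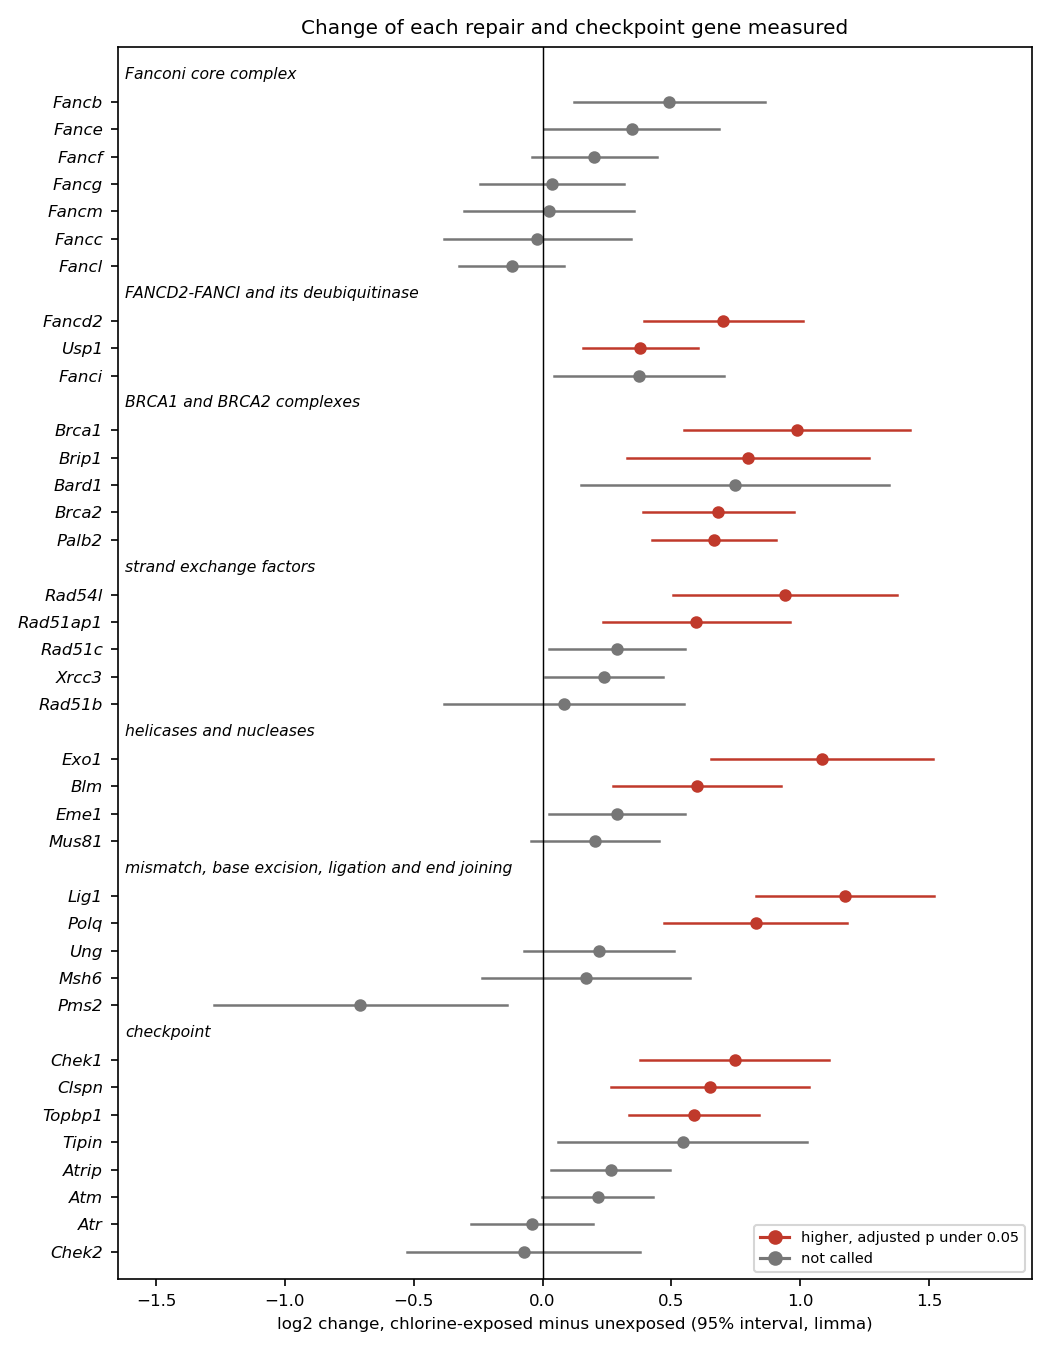
Log2 change (chlorine-exposed minus unexposed, 5 mice each) of each measured gene with its 95% interval from limma, grouped by role; red genes passed an adjusted p under 0.05. Every red point lies right of 0, and Pms2 is the one gene whose interval lies wholly below 0 although it did not pass.

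Of the Fanconi genes and the deubiquitinase Usp1, Fancd2 and Usp1 rose. None of the 7 measured core complex genes passed, where 10.8% of all genes tested were called in either direction, so this count is near the background. Fancd2 is the protein that the complex marks with ubiquitin. Fancd2 read 5.08, 5.46, 4.86, 4.91 and 5.48 in exposed mice 1 to 5, against 4.52, 4.42, 4.38, 4.65 and 4.30 in unexposed mice 1 to 5. The groups did not overlap, and the difference was 1.63-fold (log2 change 0.70, SE 0.14, adjusted p = 0.00845). Usp1, the enzyme that takes the ubiquitin off again, read 7.19, 7.35, 7.21, 7.51 and 7.53 in exposed mice and 7.15, 6.98, 6.87, 7.03 and 6.87 in unexposed mice. Exposed mice again all lay higher, by a margin of 0.042 between the nearest pair, and Usp1 rose 1.30-fold (adjusted p = 0.0353). Among the 10 fits with a mouse left out, the call held in those that dropped exposed mouse 1, exposed mouse 3 or unexposed mouse 1, and in no other (adjusted p 0.0255 to 0.0851). Fanci, the partner of Fancd2, changed by 0.37 (SE 0.15, adjusted p = 0.145); it passed without exposed mouse 3 (adjusted p = 0.0419).

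Within the core complex the changes spread around 0, from -0.12 to 0.49, with a median of 0.037; 2 of the 7 had an unadjusted p under 0.05, where 24.4% of all genes did. Fancl carries the ubiquitin ligase activity of the complex; its change was -0.12 (95% interval -0.32 to 0.084). Fancm, a DNA translocase that anchors the complex to DNA, changed by 0.025 (95% interval -0.31 to 0.35), and the scaffold subunits Fancc and Fancg by -0.021 and 0.037. The intervals of these last 3 reach beyond 0.3, so small changes were not detectable. Fancf changed by 0.20 (adjusted p = 0.305) and Fance, which holds FANCD2 for modification, by 0.35 (adjusted p = 0.196). Fancb had the highest value of the complex, 0.49 (SE 0.17, adjusted p = 0.0933), and leaving out either exposed mouse 1 or unexposed mouse 2 made it pass (lowest adjusted p = 0.0334, highest 0.191, over the mice left out).

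The BRCA1 and BRCA2 complexes held the largest share of called genes. Here 4 of 5 measured rose (80.0%, against 5.85% of all genes tested), with a median log2 change of 0.75 for the 5. Brca1, a ubiquitin ligase that steers breaks toward recombination, read 4.86, 4.93, 4.24, 5.01 and 4.95 in exposed mice, against 3.43, 4.24, 3.38, 3.89 and 4.11 in unexposed mice. The rise was 1.98-fold (adjusted p = 0.00882), with a log2 change of 0.99 and an SE of 0.20. Exposed mouse 3 stood low in its group and only 0.0044 above the highest unexposed mouse. Brca2, a core mediator of homologous recombination, read 5.36, 5.56, 5.62, 5.60 and 6.12 in exposed mice and 4.79, 5.07, 5.05, 5.02 and 4.92 in unexposed mice. The 2 groups were 0.29 apart at their nearest, and the rise was 1.60-fold (log2 change 0.68, SE 0.13, adjusted p = 0.0073). Palb2, which joins BRCA1 to BRCA2, ranged over 4.94 to 5.39 in exposed mice, against 4.25 to 4.62 in unexposed mice, a 1.59-fold rise (adjusted p = 0.00268; log2 change 0.67, SE 0.11). Brip1, a helicase bound by BRCA1, read 4.40, 5.21, 4.79, 5.01 and 5.65 in exposed mice, against 3.98, 4.05, 4.21, 4.68 and 4.16 in unexposed mice. Its groups overlapped through exposed mouse 1 and unexposed mouse 4, and it rose 1.74-fold (adjusted p = 0.0346). The call on Brip1 held with exposed mouse 1, exposed mouse 3 or unexposed mouse 4 dropped, and in none of the other 7 such fits (adjusted p 0.00809 to 0.0853). Bard1, the obligate partner of BRCA1, changed by 0.75 (SE 0.27, adjusted p = 0.112); unexposed mouse 3, at 3.24, lay far below the other 4 unexposed mice.

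Of the 5 measured strand exchange factors, 2 rose (40.0%, against 5.85% of all genes tested) and 3 did not pass. Rad54l, a DNA motor protein of strand invasion, read 5.54, 5.48, 4.81, 5.87 and 6.01 in exposed mice and 4.65, 4.49, 4.51, 4.88 and 4.48 in unexposed mice. The rise was 1.92-fold (adjusted p = 0.011; log2 change 0.94, SE 0.20), and exposed mouse 3 alone lay within the unexposed range. Rad51ap1, which stimulates strand pairing, read 5.47, 5.26, 5.31, 5.63 and 5.90 in exposed mice, against 5.21, 4.71, 5.08, 4.48 and 5.09 in unexposed mice. The groups were 0.056 apart, the rise was 1.51-fold (adjusted p = 0.0403), and the call held with exposed mouse 2, exposed mouse 3 or unexposed mouse 1 dropped but with no other (adjusted p 0.0406 to 0.0942). Rad51c, Xrcc3 and Rad51b, related proteins that assist recombination, changed by 0.29, 0.24 and 0.084 (adjusted p = 0.164, 0.184 and 0.863).

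Of the 4 genes that cut and unwind the DNA intermediates, Exo1 and Blm rose. Exo1, the exonuclease that resects broken ends, read 5.13, 5.85, 5.60, 5.48 and 6.09 in exposed mice, against 4.35, 4.86, 4.07, 4.77 and 4.68 in unexposed mice. With no overlap the rise was 2.12-fold (adjusted p = 0.00479; log2 change 1.08, SE 0.20). Blm, the helicase that dissolves crossed-over strands, read 5.39, 5.86, 5.61, 5.41 and 6.12 in exposed mice and 4.87, 5.28, 4.96, 5.12 and 5.15 in unexposed mice. Blm rose 1.51-fold (adjusted p = 0.0249) with every exposed mouse above every unexposed one, and dropping any of exposed mouse 2 and unexposed mice 1, 3 and 4 ended the call (adjusted p 0.0144 to 0.066). The subunits of the nuclease that cuts such intermediates, Eme1 and Mus81, changed by 0.29 and 0.20 (adjusted p = 0.165 and 0.311).

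Lig1, the ligase that joins Okazaki fragments and seals excision repair, had the largest rise of the whole list. It read 7.44, 7.77, 7.19, 8.06 and 7.98 in exposed mice, against 6.54, 6.65, 6.43, 6.48 and 6.47 in unexposed mice. The lowest exposed mouse stood 0.54 above the highest unexposed one, the widest gap of any gene here, and the difference was 2.25-fold (log2 change 1.17, SE 0.16, adjusted p = 0.000782). Polq, the polymerase of microhomology-mediated end joining, read 4.31, 4.78, 4.79, 4.83 and 4.90 in exposed mice and 4.05, 3.50, 3.64, 4.07 and 4.22 in unexposed mice. The rise was 1.77-fold (adjusted p = 0.00722; log2 change 0.83, SE 0.16) with no overlap between the groups. The mismatch sensor Msh6 and the uracil glycosylase Ung changed by 0.17 and 0.22 (adjusted p = 0.643 and 0.359).

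Pms2, a mismatch repair endonuclease subunit, had the lowest value of the list, -0.71 (SE 0.26, adjusted p = 0.114), and passed only without exposed mouse 1 (log2 change -0.91, adjusted p = 0.021). It read 6.75, 6.39, 5.41, 5.99 and 5.22 in exposed mice, against 6.82, 6.55, 6.41, 6.86 and 6.65 in unexposed mice. Exposed mice 2, 3, 4 and 5 thus lay below the unexposed range, exposed mouse 2 only just. The mean of 7 ciliated cell markers was 8.15, 7.51, 4.67, 5.89 and 4.51 in exposed mice 1 to 5. That puts these mice in the same order. In unexposed mice the ciliated mean was 8.34 to 8.90, and 4 of the 7 markers fell and 0 rose. The ciliated list is 1 of 12 marker lists. The secretory epithelial mean was 11.5, 10.9, 5.32, 9.64 and 9.96 in exposed mice 1 to 5. It puts exposed mice 3, 4 and 5 in another order. The part of ciliated cells in the Pms2 values was not tested.

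Of the 8 checkpoint genes measured, 3 rose (37.5%, against 5.85% of all genes tested). They were the ATR activator Topbp1, the adaptor Clspn and the effector kinase Chek1. Topbp1, which activates ATR, read 8.00, 8.22, 7.94, 8.09 and 8.36 in exposed mice, against 7.61, 7.60, 7.51, 7.70 and 7.26 in unexposed mice. The groups stood 0.24 apart and the rise was 1.50-fold (adjusted p = 0.00722; log2 change 0.59, SE 0.11). Chek1 (CHK1) read 5.60, 6.14, 5.91, 5.71 and 6.22 in exposed mice and 4.78, 5.09, 5.05, 5.33 and 5.59 in unexposed mice. The rise was 1.68-fold (adjusted p = 0.0154; log2 change 0.75, SE 0.17), although exposed mouse 1 and unexposed mouse 5 differed by only 0.0045. Clspn (claspin) read 5.72, 5.84, 5.62, 5.98 and 6.02 in exposed mice, against 4.82, 5.25, 5.16, 5.82 and 4.88 in unexposed mice. Unexposed mouse 4 overlapped the exposed range; Clspn rose 1.57-fold (adjusted p = 0.0357) and the call held with exposed mouse 1, exposed mouse 3 or unexposed mouse 4 dropped but with no other (adjusted p 0.0044 to 0.0866).

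Atr read 6.31, 6.37, 6.11, 5.87 and 6.01 in exposed mice, against 6.29, 6.17, 6.08, 6.19 and 6.14 in unexposed mice. The groups overlapped throughout, with a log2 change of -0.040 (95% interval -0.28 to 0.20, adjusted p = 0.873), and its 2 probe sets gave -0.061 and -0.019. Atm read 6.16, 6.18, 6.07, 6.13 and 6.37 in exposed mice and 5.86, 6.03, 6.05, 6.13 and 5.78 in unexposed mice. Atm changed by 0.21 (SE 0.098, adjusted p = 0.209), with 4 exposed mice above the highest unexposed one. Chek2, the effector kinase downstream of ATM, changed by -0.074 (95% interval -0.53 to 0.38, adjusted p = 0.878). Atrip, the ATR partner, changed by 0.26 (adjusted p = 0.144) and Tipin, a fork protection factor that recruits claspin, by 0.54 (SE 0.22, adjusted p = 0.15).

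**Figure D2:**
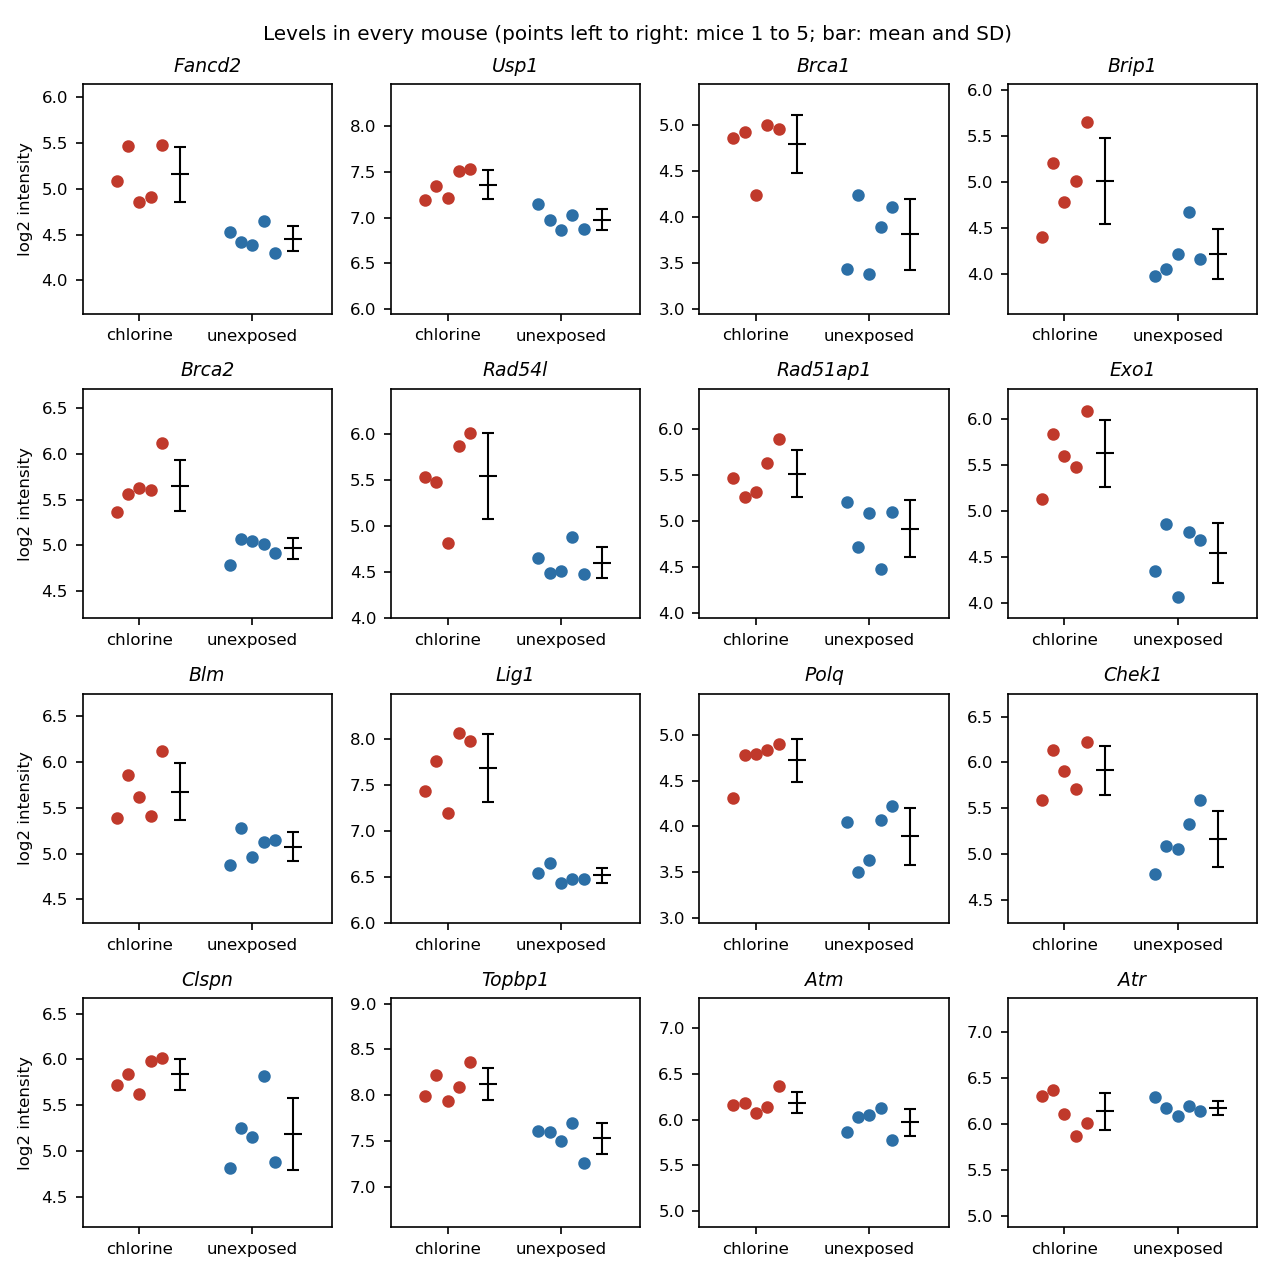
Log2 intensity of 16 genes in each mouse, exposed mice left of unexposed mice; points run from mouse 1 to mouse 5, the bar gives the mean and SD (n = 5), and every panel spans the same log2 range. Lig1 shows the widest gap between the groups, Brca1 and Chek1 nearly touch, and Atr overlaps throughout.

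A gene that passes beside a partner that does not is no test of a difference between them. For 10 partner pairs, picked after the values had been seen, the log2 ratio of the first gene to the second was therefore taken within each array. An exact permutation test was also run, but its p-values are not given because the pairs had been picked that way. The difference of the group means of this ratio, exposed minus unexposed, is given as a description only. For Topbp1 over Atr it was 0.63 (SE 0.14), for Fancd2 over Fancl 0.82 (SE 0.12) and for Chek1 over Chek2 0.82 (SE 0.27). In each of these 3 pairs, 5 of 5 exposed mice lay above the unexposed mean. The groups still overlapped for Chek1 over Chek2 (lowest exposed ratio 0.19, highest unexposed 0.42). For Fancd2 over Fanci it was 0.33 (SE 0.12), and for Atr over Atrip -0.30 (SE 0.13). The values were nearer to 0 for Brca1 over Bard1 (0.24, SE 0.25), Brca1 over Brip1 (0.19, SE 0.29), Clspn over Tipin (0.11, SE 0.23), Eme1 over Mus81 (0.085, SE 0.14) and Brca2 over Palb2 (0.016, SE 0.15).

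Other repair genes, outside the 41, were called in a smaller share, a difference that was not tested. Of 108 measured genes in 5 further lists, 15 rose (13.9%, where 5.85% of all genes did) and 2 fell (1.85%, against 4.97%), with a median log2 change of 0.13. Of 41 genes for crosslink repair and recombination partners, 6 rose (14.6%) and 1 fell (2.44%). Gen1, which cuts Holliday junctions, rose 2.92-fold to a mean of 6.07 ± 0.33 in exposed mice, against 4.53 ± 0.27 in unexposed mice (SD, n = 5 each; log2 change 1.54, adjusted p = 0.000268 by limma). Fignl1, an ATPase of recombination repair, rose 2.00-fold (adjusted p = 0.0247), and Faap24, the partner of FANCM, 1.52-fold (adjusted p = 0.0191). Rev1, a translesion polymerase, fell by 0.40 on the log2 scale (adjusted p = 0.0222). Dropping any of exposed mice 2, 4 and 5 and unexposed mice 1, 2 and 5 ended the call on Fignl1 (adjusted p 0.0128 to 0.063). Faap24 was no longer called with exposed mouse 4 or unexposed mouse 1 dropped (highest adjusted p = 0.0506), nor Rev1 with unexposed mouse 1 or 4 dropped (highest adjusted p = 0.0584).

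Of 22 checkpoint partners, 8 rose (36.4%) and 1 fell (4.55%), against 5.85% and 4.97% of all genes. Their share of rises was near the 40.5% of the 37 genes above, with no test made. Cdc25c, a phosphatase that CHK1 holds back and that opens mitosis, rose 4.18-fold, to 6.05 ± 0.68 in exposed mice, against 3.99 ± 0.38 in unexposed mice (SD, n = 5 each; log2 change 2.06, adjusted p = 0.00126 by limma). H2ax, the histone variant phosphorylated beside breaks, rose 3.32-fold (log2 change 1.73, adjusted p = 0.000163). Dbf4, the activator of the replication kinase CDC7, rose 3.13-fold (log2 change 1.65, adjusted p = 0.000106). Trp53bp1, which shields broken ends from resection, fell by 0.45 on the log2 scale (adjusted p = 0.0255) and was no longer called with exposed mouse 5 or any of unexposed mice 1, 2 and 3 dropped (highest adjusted p = 0.0644).

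In each of the other 3 lists, which are small, the share called lay below the 10.8% of all genes called in either direction. None of 11 genes of non-homologous end joining passed, and their median change was 0.0065; 3 had an unadjusted p under 0.05 (1 higher, 2 lower), against 24.4% of all genes. None of 19 further mismatch and base excision genes passed (median 0.10), with 1 at an unadjusted p under 0.05, a share below the 24.4% of all genes. Of 15 nucleotide excision repair genes, Gtf2h5, a subunit of the repair and transcription factor TFIIH, rose 1.24-fold (adjusted p = 0.0485; 0.0425 to 0.111 with 1 mouse left out), and 14 did not pass. It kept its call only without exposed mouse 1 or 3, and it was the only gene of its list at an unadjusted p under 0.05. Whether these lists differ from the 41 genes was not tested.

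Genes of cell division rose as well, with larger median changes. All 19 measured mitosis genes rose (median log2 change 2.09), as did 18 of 20 DNA replication genes (median 0.94), with 0 falls in either list. The cyclin Ccna2 rose 6.72-fold (adjusted p = 2.13e-05), the proliferation antigen Mki67 4.80-fold (adjusted p = 4.40e-05) and the helicase subunit Mcm5 2.80-fold (adjusted p = 0.000871). The mean of the mitosis list was 7.11, 7.63, 6.92, 7.38 and 7.83 in exposed mice 1 to 5, against 5.24 to 5.43 in unexposed mice. The 15 called repair genes averaged 5.64, 5.92, 5.64, 5.87 and 6.18 in exposed mice 1 to 5, against 4.97 to 5.23 in unexposed mice. They were picked as higher in exposed mice, so that gap follows from the choice. All 37 measured genes averaged 5.71, 5.90, 5.67, 5.81 and 6.01 in exposed mice 1 to 5, against 5.28 to 5.49 in unexposed mice. The 22 not called averaged 5.69 to 5.90 in exposed mice and 5.49 to 5.69 in unexposed mice. Exposed mice 5, 2 and 4 came highest, in that order, for the mitosis list, the 15 genes and the 37 genes. Exposed mice 1 and 3 were the lowest pair in each of these. Exposed mouse 5 held the highest value of its group for 13 of the 15 genes and exposed mouse 4 for the other 2. Exposed mouse 1 held the lowest value for 7 and exposed mouse 3 for 6. Among the 22 genes not called, exposed mouse 5 was highest for 8, and exposed mice 1 and 3 were lowest for 8 and 6. How far the repair genes' rise goes with the number of dividing cells was not tested. The p53 target Cdkn1a, an inhibitor of cell cycle kinases, rose 2.04-fold (adjusted p = 0.000246). In all, 3 of 16 p53 targets rose (18.8%, against 5.85% of all genes) and 0 fell. Their median change was 0.0066, with 8 changes above 0 and 8 below.

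**Figure D3:**
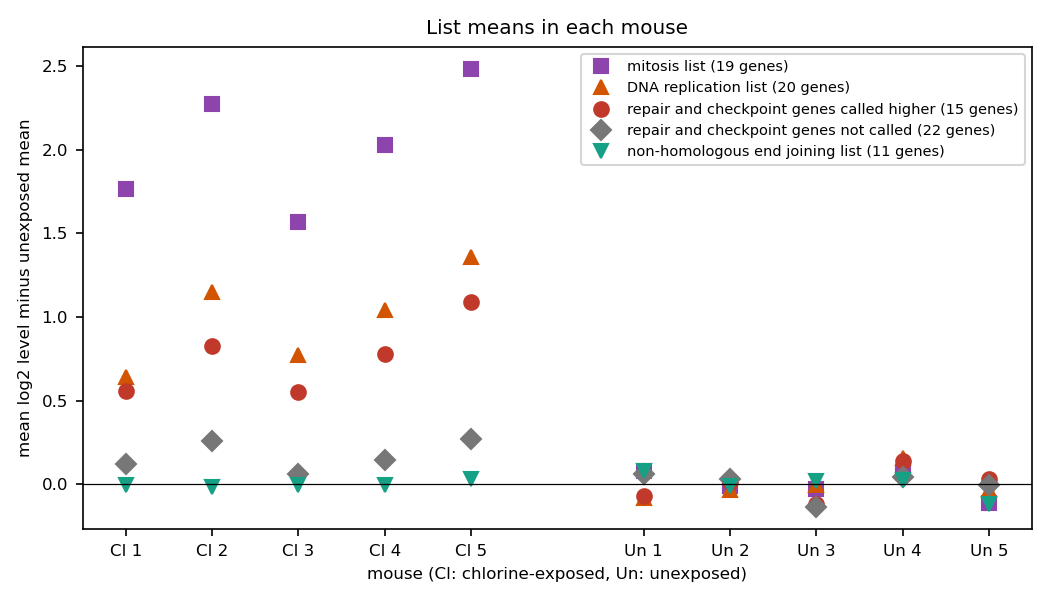
Mean log2 level of each list in each mouse, as the difference from the unexposed mean, exposed mice left of unexposed mice. The called repair genes (circles) lie below the replication and mitosis lists in each exposed mouse, and exposed mouse 5 is the highest in all 3. The circles are genes picked as higher in exposed mice, so their gap to the unexposed mice follows from that choice.

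**Figure D4:**
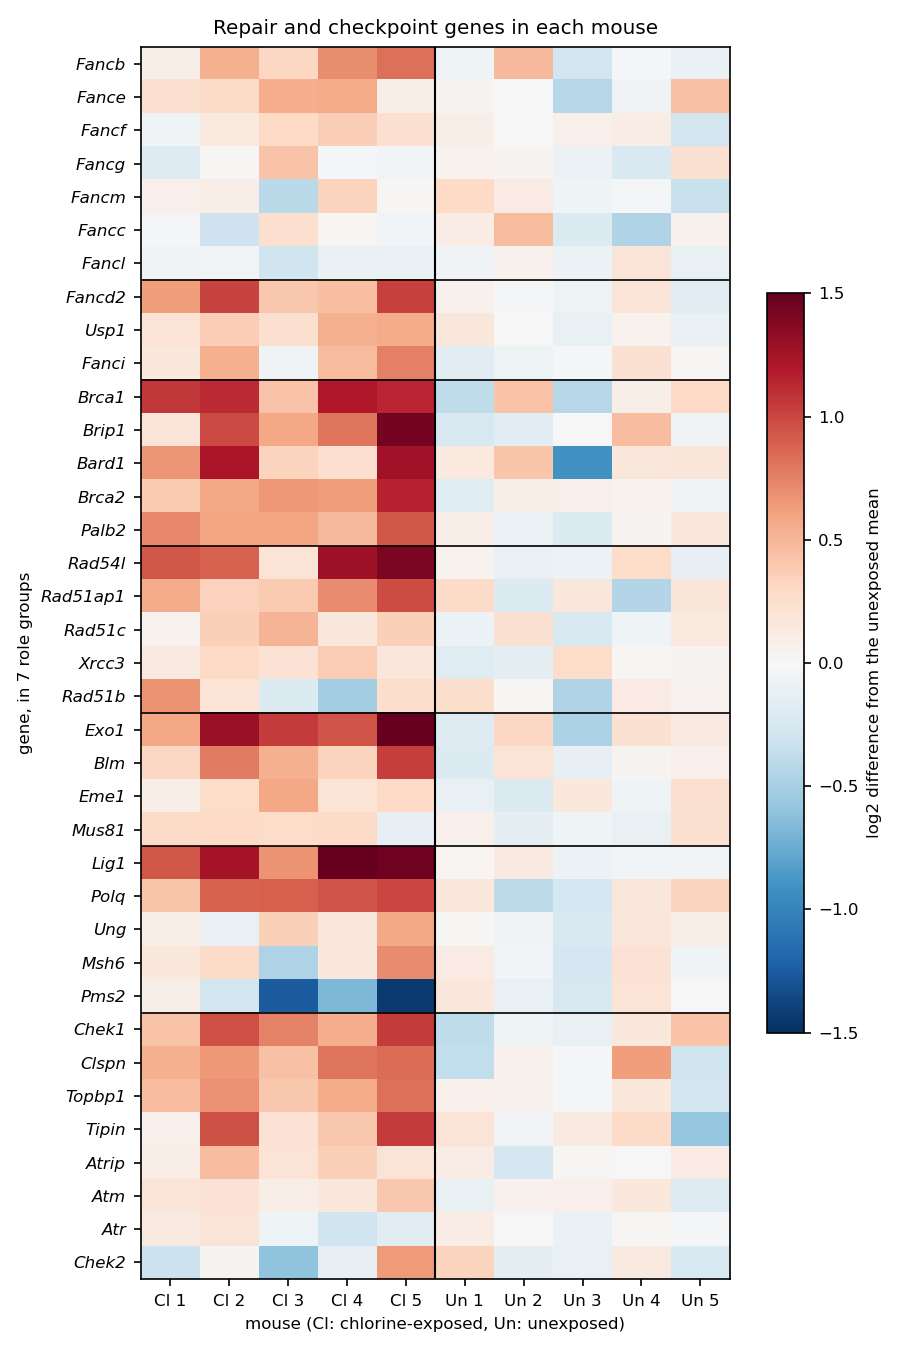
Log2 difference of each measured gene from its unexposed mean in each mouse, exposed mice left of unexposed mice, in the 7 role groups. Exposed mouse 5 is the darkest red column, exposed mice 1 and 3 are paler, and the Pms2 row is bluest in exposed mice 3, 4 and 5.

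Markers of other cell types moved between the groups too, where 5.85% of all genes rose and 4.97% fell. Of 6 basal epithelial markers, Krt14 (log2 change 4.31), Dsg3 (3.96) and Krt6a (5.32) rose, while Krt15 (-0.52), Trp63 (-0.40) and Ngfr (-0.12) did not pass, so the list mean rests on 3 genes. It had values of 7.73 to 9.09 in exposed mice, against 6.26 to 7.09 in unexposed mice. Of 9 macrophage markers, 6 rose (8.05 to 8.73 in exposed mice, against 7.31 to 7.79 in unexposed mice), and of 5 neutrophil markers 2 rose (4.98 to 6.38 in exposed mice, against 4.20 to 4.61 in unexposed mice). Of 7 secretory epithelial markers 1 passed, as lower, but all 7 changes were below 0 (median -2.48), and the groups were apart for 6 of them. Their mean was 5.32 in exposed mouse 3 and 9.64 to 11.5 in the other exposed mice, against 11.8 to 12.1 in unexposed mice. Of 9 fibroblast markers, 4 rose and 0 fell. The T cell markers averaged 4.33 to 6.33 in exposed mice and 5.35 to 5.84 in unexposed mice, and 1 of 5 fell. No marker had a detection limit, so none could be called absent. The basal mean was 9.09, 9.00, 7.73, 8.87 and 8.89 in exposed mice 1 to 5. Exposed mouse 1, highest here, and exposed mouse 3, lowest here, were the lowest pair for the called repair genes. Exposed mouse 5 was highest for those genes. With the mean of 6 general epithelial genes as a covariate, the same 15 genes were called higher. That mean hardly differed between the groups (8.933 in exposed mice, 8.955 in unexposed mice), so the covariate could take little from a rise. It therefore does not show whether epithelial content has a part in the rises. The part of each cell type in the rises was not tested.

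Promoter sequences were read because many of these genes are known, as background, to be transcribed under E2F factors in S phase. RefSeq windows (GRCm38.p6), running from 250 bases before to 50 bases after each start site, were found for 12 of the 15 called genes (15 windows) and 21 of the 22 others (23 windows). The E2F motif was searched as TTTCCCGC, TTTGGCGC, TTTGCCGC or TTTCGCGC on both strands. It stood in 4 windows of called genes (26.7%), in 6 windows of the others (26.1%) and in 2.26% of the 32851 windows of all genes. Counted by window, the shares in called and uncalled genes thus lay close to each other and above that of all windows, with no test made. Lig1, Rad54l, Rad51b and Rad51c each have more than 1 window, and every Rad51c window holds a match, so shares by gene would differ. The CCAAT box (CCAAT, both strands) stood in 53.3% of windows of called genes, 56.5% of the others and 37.4% of all windows. The cell cycle homology region, searched as TTTGAA or TTCGAA on both strands, stood in 6.67%, 17.4% and 19.2%. The 3 motifs can overlap, base composition was not matched, and a match is no evidence of binding.

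The windows with an E2F match among the called genes are shown with that of Chek2, which holds the motif and was not called. Capitals mark the match, and each sequence reads 5′ to 3′ on the gene's strand, its start site following base 250.
Brca2, chr5:150522371-150522670, + strand: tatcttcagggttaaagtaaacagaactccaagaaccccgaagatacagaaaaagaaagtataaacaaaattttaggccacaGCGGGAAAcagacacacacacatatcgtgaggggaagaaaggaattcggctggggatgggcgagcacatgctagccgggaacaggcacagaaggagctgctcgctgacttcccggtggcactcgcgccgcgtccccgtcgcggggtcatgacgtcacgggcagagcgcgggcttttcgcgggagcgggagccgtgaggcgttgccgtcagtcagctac
Lig1, chr7:13278576-13278875, + strand: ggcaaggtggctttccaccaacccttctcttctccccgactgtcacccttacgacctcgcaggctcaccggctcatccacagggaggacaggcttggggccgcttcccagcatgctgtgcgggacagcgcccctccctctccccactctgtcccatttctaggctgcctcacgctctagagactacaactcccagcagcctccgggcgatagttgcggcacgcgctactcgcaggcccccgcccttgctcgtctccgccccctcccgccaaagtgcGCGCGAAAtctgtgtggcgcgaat
Topbp1, chr9:103305077-103305376, + strand: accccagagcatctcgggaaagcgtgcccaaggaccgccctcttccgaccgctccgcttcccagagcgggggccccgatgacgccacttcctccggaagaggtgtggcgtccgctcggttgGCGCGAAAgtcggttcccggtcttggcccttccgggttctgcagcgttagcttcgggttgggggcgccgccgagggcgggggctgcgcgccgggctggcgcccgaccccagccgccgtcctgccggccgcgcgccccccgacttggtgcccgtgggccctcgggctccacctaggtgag
Clspn, chr4:126556730-126557029, + strand: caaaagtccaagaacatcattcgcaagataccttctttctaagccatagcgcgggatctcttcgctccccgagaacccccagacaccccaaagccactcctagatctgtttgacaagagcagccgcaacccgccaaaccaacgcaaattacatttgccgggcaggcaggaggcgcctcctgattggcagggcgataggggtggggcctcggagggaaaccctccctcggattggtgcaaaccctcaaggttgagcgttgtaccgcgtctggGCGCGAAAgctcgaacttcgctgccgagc
Chek2, chr5:110839733-110840032, + strand: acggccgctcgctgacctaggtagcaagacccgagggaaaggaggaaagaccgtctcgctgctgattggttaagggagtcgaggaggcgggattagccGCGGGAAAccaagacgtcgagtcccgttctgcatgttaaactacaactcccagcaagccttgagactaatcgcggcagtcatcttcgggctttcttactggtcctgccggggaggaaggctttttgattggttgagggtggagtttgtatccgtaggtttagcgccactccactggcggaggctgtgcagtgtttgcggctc
Counted from the start site, the match begins at -168 in Brca2, -129 in Topbp1, -152 in Chek2, 26 in Lig1 and 21 in Clspn. The Lig1 window is 1 of 3 listed for that gene, and the other 2 hold no match. Brca1, which rose 1.98-fold, has no window with these letters, and neither do Palb2, Polq, Chek1, Blm, Brip1, Rad51ap1 and Rad54l.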

How the data were processed

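Affymetrix arrays of tracheal subepithelial tissue from 10 mice were used. The deposited values are log2 intensities per probe set, which the authors made with Partek 6.6 and RMA (named in the submitters' processing notes); settings and build: not given in the sources used here. No further normalization was applied. Of 41345 probe sets, 23521 named 1 gene in the platform annotation, 1814 several and 16010 none; the first were averaged into 22180 genes (of the 37 genes measured, Atr alone had 2 probe sets). A linear model with moderated variances (limma 3.58.1, R 4.3.3, two-sided, no covariate) was fitted to all genes, with Benjamini-Hochberg adjustment over all genes and calls at an adjusted p under 0.05; a simulated data set tested the fit. The 41 genes, the other lists and the tests were chosen with earlier results of these data known. Values in every mouse are given for up to 3 called genes per role with the largest changes, any gene called lower, and for Brca1, Brca2, Atm and Atr; from each other repair list, up to 3 rises and 2 falls are named, and Mki67, Ccna2, Mcm5 and Cdkn1a always. Other genes were named as members or, for Palb2's range and Pms2's values, after their values were seen. Mouse numbers are shared by the groups but do not pair animals: deviations of same-numbered mice correlated at -0.049 to 0.125. Alternatives were other normalizations, filters, probe set rules, variance settings, array weights, a covariate, thresholds and mice left out. Precision is limited by the number of arrays.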

Additional observations from a re-analysis of the deposited data

Results flagged for a closer look

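In each group of 5 mice, a value was singled out where its gap to the nearest other mouse exceeded 0.71 of the group's range; 74 groups were examined, and chance singles out about 1 group in 20. Brca1 read 4.24 in exposed mouse 3, against 4.86 to 5.01 in the other exposed mice. Fancl read 6.07 in exposed mouse 3, against 6.26 to 6.32 in the others. Polq read 4.31 in exposed mouse 1, against 4.78 to 4.90 in the others. Mus81 read 5.52 in exposed mouse 5, against 5.92 to 5.95 in the others. Bard1 read 3.24 in unexposed mouse 3, against 4.29 to 4.56 in the other unexposed mice. Exposed mouse 3 also had the lowest mean of general epithelial markers (8.27).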

How the results depend on the processing

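All 15 called genes kept their call under quantile normalization, array median centring, the brightest probe set and dim genes left out. They also kept it under trend and robust settings, array weights and the epithelial covariate. That covariate hardly differed between the groups, so it could take little from a rise. Without exposed mice 1 and 3, chosen from earlier results, 14 of the 15 kept their call, where 17 genes were called in all. A stricter threshold lowered the counts: 8 genes at an adjusted p under 0.01, 4 against a 1.2-fold change and 2 at a fold of at least 2, with 8, 5 and 5 rises and 0 falls among the 108 other repair genes. With 1 mouse left out, 10 to 16 genes rose and 0 to 1 fell (Pms2, without exposed mouse 1), the median change was 0.336 to 0.422, and the other repair genes gave 9 to 18 rises and 0 to 2 falls. With mouse number as a replicate block, 14 genes were called, 13 of the 15 among them, and the other repair genes gave 10 rises and 1 fall; Usp1 (adjusted p = 0.0933) and Rad51ap1 lost their call and Bard1 gained one (adjusted p = 0.039). Same-numbered mice share a number, not a source: 1 of 5 exposed mice correlated best with its own number.

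Among genes that never passed, signs turned: Fancc to 0.011 under quantile normalization, and Fancg (-0.014), Rad51b (-0.019) and Chek2 (0.19) without exposed mice 1 and 3. Over mice left out, Atr ranged from -0.099 to 0.025, Fancc from -0.13 to 0.099, Fancg from -0.059 to 0.095, Fancm from -0.060 to 0.13, Rad51b from -0.065 to 0.24 and Chek2 from -0.25 to 0.059. For the gene pairs, an alternative chosen after seeing the data, Brca2 minus Palb2 ranged from -0.053 to 0.10 and Clspn minus Tipin from -0.037 to 0.21, while Topbp1 minus Atr stayed at 0.54 to 0.70 and Fancd2 minus Fancl at 0.75 to 0.89. The cause of each of these was not tested. With no signal over background at hand, how far dim signals limit the folds is unknown.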
